A study of Mus musculus with 4 samples.

Results

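Transforming growth factor beta (TGF-beta) pathway genes were described in cultured mouse epidermal keratinocytes by taking every gene probe of the arrays that carried the name of one of 10 genes: Tgfb1, Tgfb2, Tgfb3, Inhba, Ltbp1, Tgfbr1, Tgfbr2, Smad3, Smad7 and Tgfbi. This rule gave 16 probes on 25 spots, of 41174 gene probes with 27962 different gene names on the array. All 16 probes passed the filter on dim probes, which kept 35574 probes in all, and all 16 were well above background in both channels on 4 of 4 arrays.

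The cultures came from mice of 2 genotypes. In F/- mice the flanked Casp8 allele (F) was paired with a null allele, and in F/+ mice with a wild-type allele. Both genotypes carried K5-Cre, a recombinase driven by the promoter of keratin 5, a gene of basal keratinocytes. Caspase-8 is a protease that starts apoptosis downstream of death receptors. The age label of all mice reads P3. Keratinocytes of 2 mice per genotype were cultured in serum-free medium, and RNA was taken at passage 3 (late) and passage 1 (early), which gave 8 RNA samples in 2 pairs. On each of 4 two-colour Agilent arrays, F/- RNA carried Cy3 and F/+ RNA of the same pair and passage carried Cy5. Ratios are log2 of F/- over F/+ intensity, and levels are log2 intensities after normalization. A probe's level can be compared between samples but not with another probe's.

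TGF-beta ligands are made as latent complexes, are held in the matrix by latent TGF-beta binding proteins and, once freed, join a type II with a type I receptor kinase. The receptors phosphorylate Smad2 and Smad3, which enter the nucleus with Smad4 and change transcription, while Smad7 is an inhibitor induced by the pathway. In the epidermis the pathway is known for restraining keratinocyte proliferation and for its part in wound repair.

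No array had its dyes exchanged, so a dye effect adds to the genotype ratio and cannot be told apart from it, whereas it cancels within a dye between passages. The second channel's source name places the F/+ RNA of both late arrays at the first passage, while titles, descriptions and the passage entry say passage 3, which were followed. Levels of that late Cy5 RNA correlated at 0.976 to 0.981 with Cy3 RNA of the other late array (Pearson's r across 35475 probes, which are not independent replicates). With RNA of the early arrays they correlated at 0.957 to 0.975 for Cy3 and at 0.954 to 0.971 for Cy5, so the late and early ranges lie close together. Keratinocyte markers were well above background in every channel for 7 of 7 genes, including Krt5, Krt14 and Trp63. The Casp8 probe had ratios of 0.47 and -0.20 at passage 3 and 0.42 and 0.18 at passage 1 (pairs 1 and 2). Whether it lies inside the deleted part is not known here, so it checks neither the deletion nor the labels. In bulk cultures, fewer cells of a type and less RNA per cell cannot be told apart.

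The largest change among the 16 probes was a rise of Tgfb3 with passage, in both genotypes. Tgfb2, Tgfbr1 and Smad3 also rose in both. Promoters of Tgfb2, Tgfbr1 and Smad3 are shown because these genes moved the same way, as 250 bases before to 50 after the gene start (RefSeq, build GRCm38.p6, in the gene's own direction). Capitals mark matches on either strand to the TATA box (TATAAA), the GC box (GGGCGG), the AP-1 site (TGANTCA) and the CAGA box (CAGACA), a core of Smad-binding elements.
Tgfb2 chr1:186705940-186706239, minus strand: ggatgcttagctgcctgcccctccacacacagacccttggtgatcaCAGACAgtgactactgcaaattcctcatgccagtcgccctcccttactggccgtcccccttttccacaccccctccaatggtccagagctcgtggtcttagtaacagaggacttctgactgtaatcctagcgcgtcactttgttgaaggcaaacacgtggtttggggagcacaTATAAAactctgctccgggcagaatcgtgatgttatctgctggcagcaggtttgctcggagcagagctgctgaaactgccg
Tgfbr1 chr4:47352972-47353271, plus strand: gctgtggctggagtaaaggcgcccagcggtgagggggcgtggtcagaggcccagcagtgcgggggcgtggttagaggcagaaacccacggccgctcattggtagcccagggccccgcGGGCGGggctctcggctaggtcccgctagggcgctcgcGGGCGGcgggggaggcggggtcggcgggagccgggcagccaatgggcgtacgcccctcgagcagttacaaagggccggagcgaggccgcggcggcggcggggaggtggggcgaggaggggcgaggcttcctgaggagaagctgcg
Smad3 chr9:63757945-63758244, minus strand: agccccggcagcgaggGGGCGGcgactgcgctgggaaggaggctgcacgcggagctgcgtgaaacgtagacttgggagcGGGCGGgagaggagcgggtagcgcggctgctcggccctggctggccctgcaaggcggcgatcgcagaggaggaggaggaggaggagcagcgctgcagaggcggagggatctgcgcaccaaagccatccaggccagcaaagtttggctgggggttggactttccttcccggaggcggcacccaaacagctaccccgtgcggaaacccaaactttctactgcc
The Tgfb2 promoter held a TATA box starting at -31 from the gene start and a CAGA box at -204. The Smad3 promoter held GC boxes at -234 and -171. Tgfbr1 has 2 entries: the one printed held GC boxes at -133 and -95, and the other, at chr4:47385966-47386265 on the plus strand, held 0 GC boxes and a CAGA box at -203. Over 10 promoter entries of 8 member genes, 2 held the TATA box, 4 the GC box, 0 the AP-1 site and 3 the CAGA box. Of 32851 mouse promoters of the same length, 13.6% held the TATA box, 35.7% the GC box, 7.81% the AP-1 site and 21% the CAGA box. A match is a run of letters and no evidence of a bound factor.

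The first comparison asked how the genes changed with time in culture, which the series title names as its subject. Passage 3 was set against passage 1 within each dye by limma's separate-channel fit, and p-values were adjusted over 35475 probes by the Benjamini-Hochberg method. In F/- cultures 5 of 16 probes, from 4 genes, rose at an adjusted p under 0.05 and 0 fell, where 5.09% of all probes passed (2.82% higher and 2.28% lower). In F/+ cultures the same 5 probes rose and 0 fell, where 5.66% of all probes passed (3.17% higher and 2.49% lower). The median over the 16 probes was 0.25 in F/- and 0.23 in F/+ cultures, beside 0.01 and 0.02 over all probes. The F/- and F/+ samples share arrays, so array effects enter both comparisons. The member genes were chosen with earlier results of these data known, so these shares are no independent test.

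Tgfb3, which encodes the ligand TGF-beta 3, had levels of 12.35 and 12.49 at passage 3 and 8.96 and 8.88 at passage 1 in F/- cultures (pairs 1 and 2). In F/+ cultures its levels were 11.55 and 11.77 at passage 3 and 8.70 and 8.81 at passage 1. Every late sample lay above every early one, and both late F/- samples lay above both late F/+ samples. The rise was 3.49 ± 0.16 on the log2 scale in F/- cultures (SD over 2 pairs), or 11.3-fold with a 95% interval of 8.73 to 14.5 (limma, adjusted p = 0.000184). In F/+ cultures it was 2.90 ± 0.07, or 7.46-fold (5.78 to 9.63, adjusted p = 0.000274). Tgfb3 passed the test in both genotypes in all 13 alternative analyses, between 3.40 and 3.69 in F/- and between 2.79 and 3.13 in F/+ cultures.

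Tgfb2, the gene of TGF-beta 2, stood at 7.90 and 7.84 at passage 3 and 6.71 and 6.98 at passage 1 in F/- cultures, and at 7.68 and 7.49 at passage 3 and 6.52 and 6.40 at passage 1 in F/+ cultures. Late and early samples did not overlap in either genotype. It rose 2.04-fold (1.47 to 2.82, limma adjusted p = 0.033) in F/- and 2.18-fold (1.57 to 3.02, adjusted p = 0.0224) in F/+ cultures.

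Tgfb1, the gene of TGF-beta 1, was called in neither genotype. Its levels were 10.75 and 10.28 at passage 3 and 10.35 and 10.20 at passage 1 in F/- cultures. In F/+ cultures they were 10.18 and 10.58 at passage 3 and 9.16 and 9.47 at passage 1. The early F/+ samples were the 2 lowest of the 8, and late and early samples overlapped in F/- but not in F/+ cultures. The change was 0.24 (-0.65 to 1.12, limma adjusted p = 0.753) in F/- and 1.06 (0.18 to 1.95, adjusted p = 0.168) in F/+ cultures. Without the late array of pair 1 the F/+ change passed, at 1.27 with an adjusted p of 0.0331.

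Inhba encodes the beta A subunit of activins, relatives of TGF-beta. Its levels were 15.21 and 14.93 at passage 3 and 16.05 and 15.59 at passage 1 in F/- cultures, and 15.25 and 14.72 at passage 3 and 15.59 and 15.38 at passage 1 in F/+ cultures. Late samples lay below early ones in both genotypes, but the changes of -0.75 (-1.30 to -0.20, limma adjusted p = 0.125) and -0.50 (-1.04 to 0.05, adjusted p = 0.276) did not pass the test. The 3 TGF-beta ligands had changes above 0 in both genotypes, so Inhba stood on the other side.

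Ltbp1, which encodes a latent TGF-beta binding protein, had changes of 0.11 in F/- and 0.23 in F/+ cultures on its brighter probe, A_51_P281716, and of 0.27 and 0.13 on A_52_P189946. None of the 4 intervals excluded 0. On the brighter probe the late F/+ samples were the highest and the lowest of the 8 levels, at 9.54 in pair 2 and 8.65 in pair 1.

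Among the receptors, Tgfbr1 was called on 1 of its 2 probes and Tgfbr2 on 0 of 3. Tgfbr1 encodes the type I receptor kinase. Its brighter probe, A_52_P4538, read 11.08 and 11.36 at passage 3 and 9.93 and 10.04 at passage 1 in F/- cultures, and 11.10 and 11.58 at passage 3 and 9.75 and 10.20 at passage 1 in F/+ cultures. Late samples lay above early ones in both genotypes. The rise was 2.34-fold (1.61 to 3.42, limma adjusted p = 0.0298) in F/- and 2.58-fold (1.77 to 3.77, adjusted p = 0.0187) in F/+ cultures. The dimmer Tgfbr1 probe, A_51_P280137, stayed between 6.46 and 6.78 in all samples, with changes of -0.03 (-0.45 to 0.38) and -0.05 (-0.46 to 0.36). Only the brighter probe thus showed the rise, and probes near background have compressed ratios, which bears on the dimmer one. Tgfbr2 encodes the type II receptor kinase that binds ligand first. Its brightest probe, A_51_P450573, lay between 13.66 and 13.97 in all 8 samples, with changes of -0.12 (-0.44 to 0.20) in F/- and -0.26 (-0.58 to 0.06) in F/+ cultures. A_52_P251403 changed by -0.37 (-0.78 to 0.03) in F/- and -0.37 (-0.77 to 0.04) in F/+ cultures. On both of these probes late samples lay below early ones in both genotypes. On A_52_P3811 late and early samples overlapped, with changes of -0.02 and -0.01.

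Smad3, the gene of a receptor-activated Smad, rose on 2 of its 3 probes. The brightest, A_52_P352277, read 11.78 and 11.63 at passage 3 and 10.36 and 10.17 at passage 1 in F/- cultures, and 11.08 and 10.99 at passage 3 and 9.93 and 9.86 at passage 1 in F/+ cultures. All 4 groups were apart from each other, with late F/- samples highest and early F/+ samples lowest. The rise was 2.72-fold (2.14 to 3.44, limma adjusted p = 0.00292) in F/- and 2.21-fold (1.74 to 2.80, adjusted p = 0.00625) in F/+ cultures. The second probe, A_51_P441022, rose by 1.05 in F/- (adjusted p = 0.012) and 0.87 in F/+ cultures (adjusted p = 0.021, and 0.0636 with the pair as a replicate block). The third and dimmest, A_51_P376454, changed by 0.34 (-0.20 to 0.89) and 0.23 (-0.32 to 0.77), without passing.

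Smad7, the inhibitory Smad, was higher in pair 2 than in pair 1 in all 4 groups. Its levels were 8.43 and 10.00 at passage 3 and 9.28 and 9.72 at passage 1 in F/- cultures, and 8.45 and 9.26 at passage 3 and 9.21 and 9.68 at passage 1 in F/+ cultures. Late and early samples overlapped in both genotypes, with changes of -0.29 (-1.38 to 0.81) and -0.59 (-1.68 to 0.51). Tgfbi encodes a matrix protein induced by TGF-beta. It read 13.42 and 12.70 at passage 3 and 12.63 and 11.69 at passage 1 in F/- cultures, and 13.13 and 12.78 at passage 3 and 11.02 and 11.54 at passage 1 in F/+ cultures. Late samples lay above early ones in both, by 0.90 (-0.46 to 2.26, limma adjusted p = 0.423) in F/- and 1.67 (0.31 to 3.03, adjusted p = 0.157) in F/+ cultures. The F/+ change passed with median centring in place of loess, at 1.75 with an adjusted p of 0.0346.

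**Figure D1:**
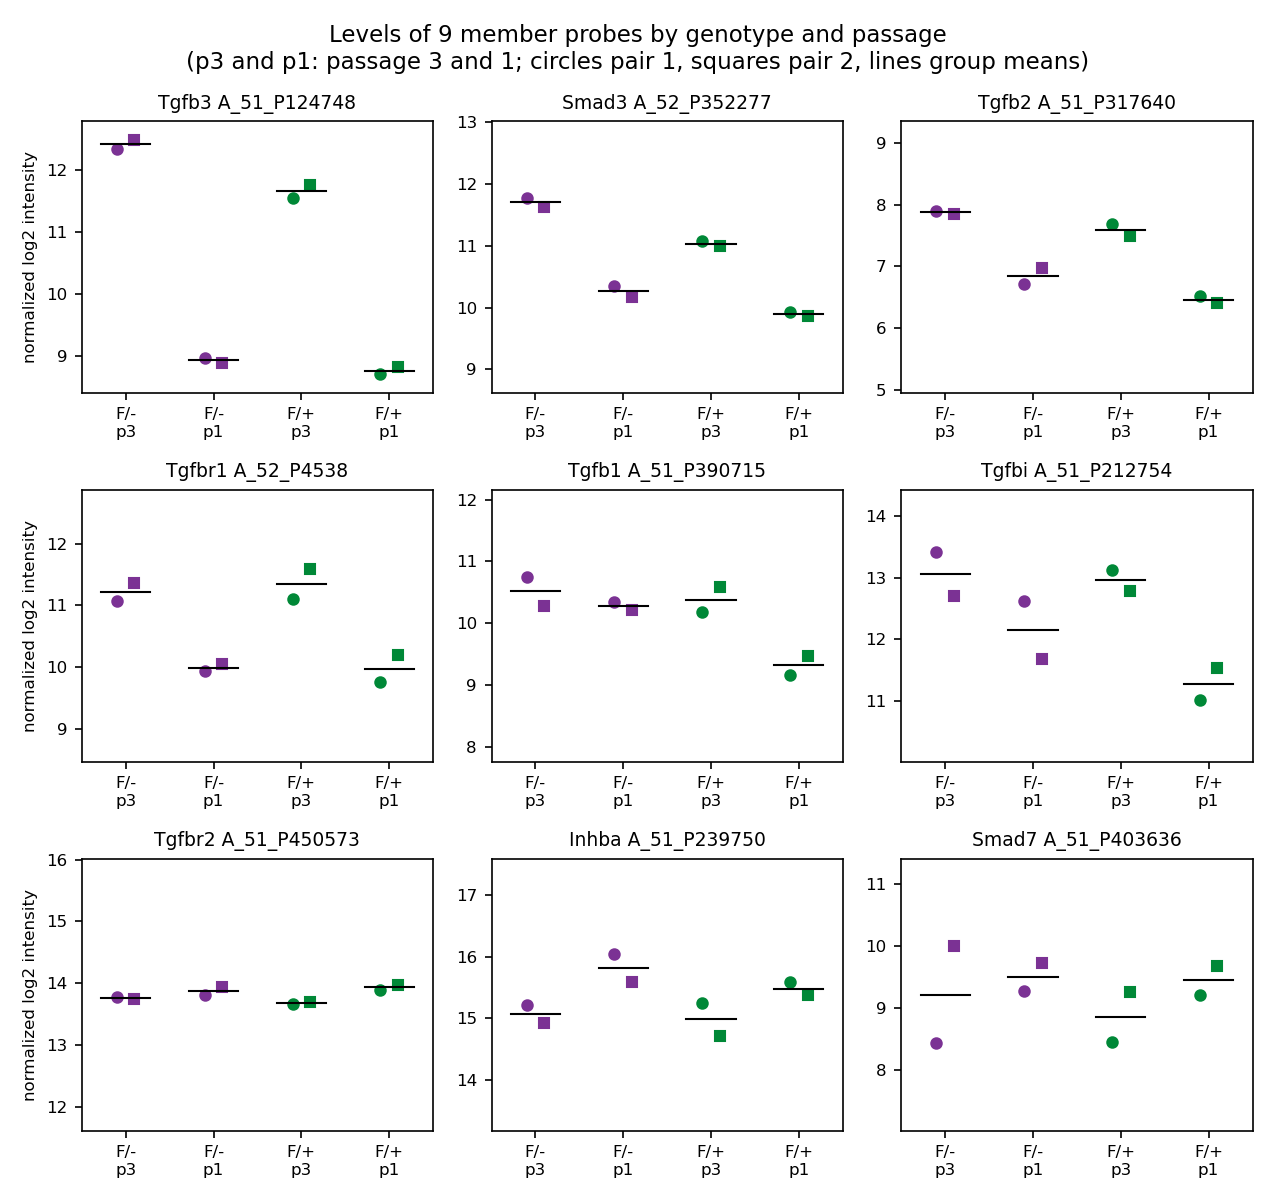
Normalized log2 intensity of 9 member probes (vertical axis, each panel spanning the same number of log2 units) in F/- and then F/+ cultures, passage 3 left of passage 1, with circles for pair 1, squares for pair 2 and lines for group means. Tgfb3 lies near 12 in late F/- and F/+ cultures and near 9 in early ones, while Tgfbr2 A_51_P450573 stays between 13.66 and 13.97.

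Counted by overlap alone, 7 probes had both late F/- samples above both early ones and 3 had them below, where 28.7% and 28% of all probes did so. In F/+ cultures the counts were also 7 and 3, where 26.8% and 25.2% of all probes did so. Dropping an array leaves 1 sample in an arm, and the calls then moved both ways. Fewer member probes, and fewer of all probes, passed in each genotype when either early array was dropped. The same held for the late one of pair 2. When the late one of pair 1 was dropped, more of all probes passed in each genotype. Fewer member probes then passed in F/- and more in F/+ cultures. Of all called probes, 55.3% were higher in F/- and 56% in F/+ cultures after Aquantile scaling, against 30.7% and 31.4% with processed signals scaled to the 75th percentile. With that scaling 2 member probes were called in F/- and 4 in F/+ cultures, all of them higher.

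**Figure D2:**
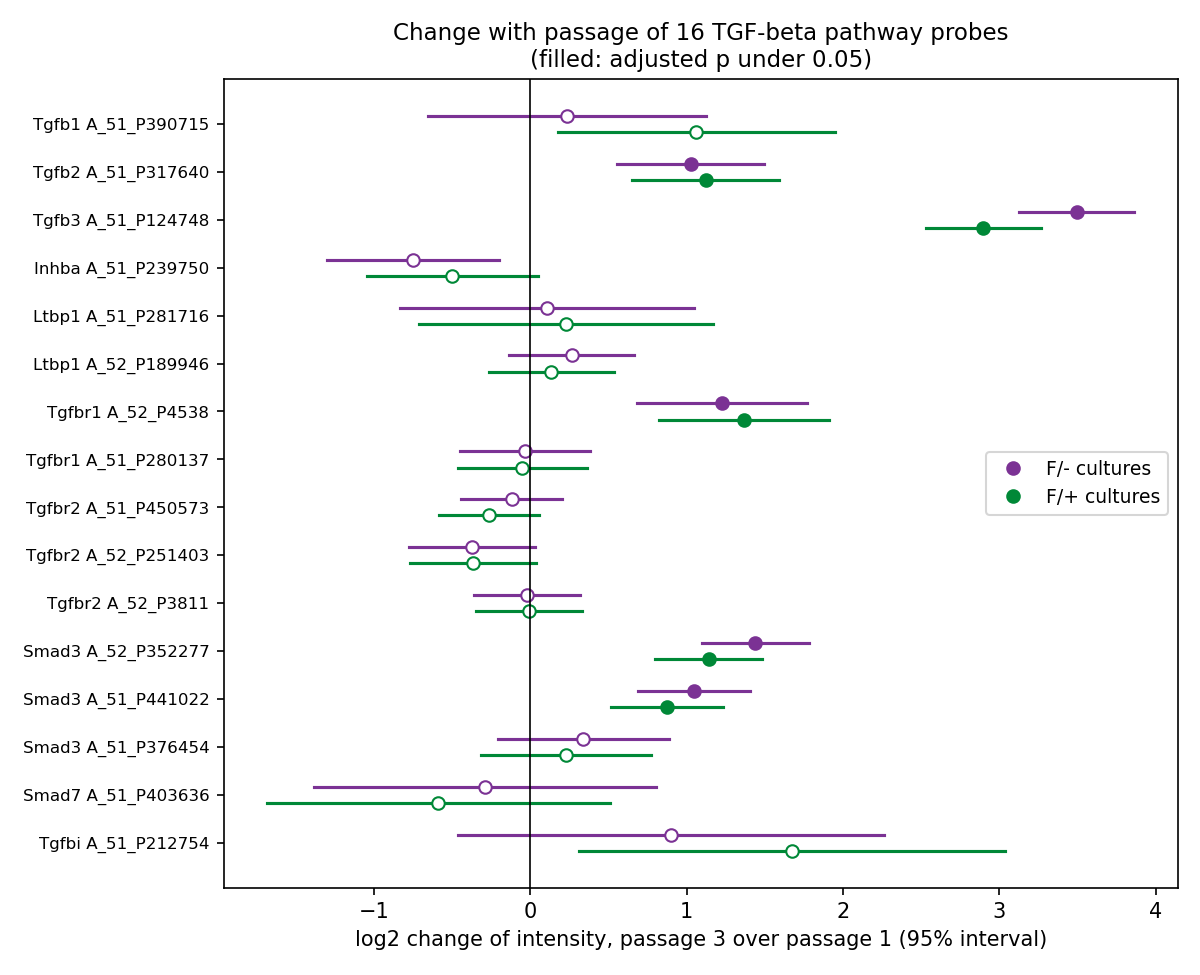
Log2 change of intensity from limma's separate-channel fit, passage 3 over passage 1 (horizontal axis), with 95% intervals, for the 16 member probes in F/- (upper of each pair of lines) and F/+ cultures, filled where the adjusted p was under 0.05. Tgfb3 stands at 3.49 and 2.90, and the other 4 filled probes in each genotype lie between 0.87 and 1.44.

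The second comparison asked how F/- differed from F/+ cultures. At passage 3 alone, 0 of 16 member probes passed limma's test on the ratios, as did 0% of all 35574 probes, and 4 member probes had an unadjusted p under 0.05, where 20% of all probes did. At passage 1 alone the counts were 0 (0% of all probes) and 6, where 20.6% of all probes had an unadjusted p under 0.05. Averaged over both passages, 4 probes from 3 genes were higher in F/- cultures and 0 lower, where 8.84% of all probes passed (5.85% higher and 2.99% lower). There 7 member probes had an unadjusted p under 0.05, where 29.4% of all probes did. The median ratio of the 16 probes was 0.15 at passage 3, 0.21 at passage 1 and 0.21 averaged, beside -0.01 over all probes in each case. Of the 16 probes, 5 had a positive ratio on 4 of 4 arrays and 0 a negative one, where 19% and 19.9% of all probes did so.

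Tgfb3 had ratios of 0.80 and 0.72 at passage 3 and 0.26 and 0.07 at passage 1 (pairs 1 and 2). It was higher in F/- RNA on 4 of 4 arrays and more so on both late arrays. The averaged ratio was 0.46 ± 0.35 (SD over 4 arrays), or 1.38-fold (1.24 to 1.54, limma adjusted p = 0.0282). Smad3 followed the same order on its brightest probe, A_52_P352277, with 0.70 and 0.64 at passage 3 and 0.43 and 0.31 at passage 1. Its averaged ratio was 0.52 ± 0.18, or 1.43-fold (1.30 to 1.58, adjusted p = 0.0257). Smad3 A_51_P441022 averaged 0.34 ± 0.13 (limma adjusted p = 0.0427, and 0.0603 with the pair as a replicate block), while A_51_P376454 averaged 0.11 and did not pass.

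Tgfbr2 was called on 1 of 3 probes. A_52_P251403 read 0.26 and 0.42 at passage 3 and 0.38 and 0.31 at passage 1, an average of 0.34 ± 0.07 (1.27-fold, 1.14 to 1.41, limma adjusted p = 0.0398, and 0.0558 with the pair as a replicate block). The brightest Tgfbr2 probe, A_51_P450573, had 0.12 and 0.05 at passage 3 and -0.08 and -0.03 at passage 1. Its average of 0.01 became -0.40 with median centring in place of loess, and its ratio of 0.08 at passage 3 became -0.33. The third probe, A_52_P3811, lay between -0.01 and 0.05 on all arrays. Tgfbr1 averaged -0.06 (-0.27 to 0.15) on its brighter probe and 0.02 (-0.16 to 0.19) on the other. The 3 probes of Tgfbr2 thus give no common ratio.

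Tgfb1 had the widest spread of the TGF-beta ligands between arrays. Its probe is spotted 10 times, and the mean ratio was 0.57 and -0.30 at passage 3 and 1.18 and 0.73 at passage 1. The SD over the 8 to 10 spots used per array was between 0.03 and 0.07. The average of 0.55 ± 0.62 (0.11 to 0.98, limma adjusted p = 0.11) did not pass, whereas with the pair as a replicate block the adjusted p was 0.0368. Without the late array of pair 2, the only one with a negative ratio, the value was 0.76 with an adjusted p of 0.0302. At passage 1 alone the ratio was 0.96 ± 0.32 (adjusted p = 0.132), and at passage 3 alone it was 0.13 (-0.48 to 0.74), which became -0.05 with median centring in place of loess.

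Tgfb2 had ratios of 0.22 and 0.36 at passage 3 and 0.19 and 0.57 at passage 1, positive on 4 of 4 arrays, with an average of 0.33 ± 0.18 (limma adjusted p = 0.0746). It passed with the scanner software's own ratios, at 0.61 with an adjusted p of 0.047, and with a background offset of 0, at 0.54 with an adjusted p of 0.0355. Tgfbi had 0.29 and -0.08 at passage 3 and 1.60 and 0.15 at passage 1, so the early array of pair 1 stood far above the others, and the average of 0.49 ± 0.76 did not pass (adjusted p = 0.266). Smad7 had -0.02 and 0.73 at passage 3 and 0.07 and 0.04 at passage 1. Its one large ratio came from the late array of pair 2.

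Inhba ratios were -0.04 and 0.20 at passage 3 and 0.46 and 0.21 at passage 1, an average of 0.21 (limma adjusted p = 0.152) that turned to -0.37 with median centring. Ltbp1 had 0.56 and -0.26 at passage 3 and 0.54 and 0.00 at passage 1 on its brighter probe, so pair 1 was high and pair 2 was not at both passages.

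**Figure D3:**
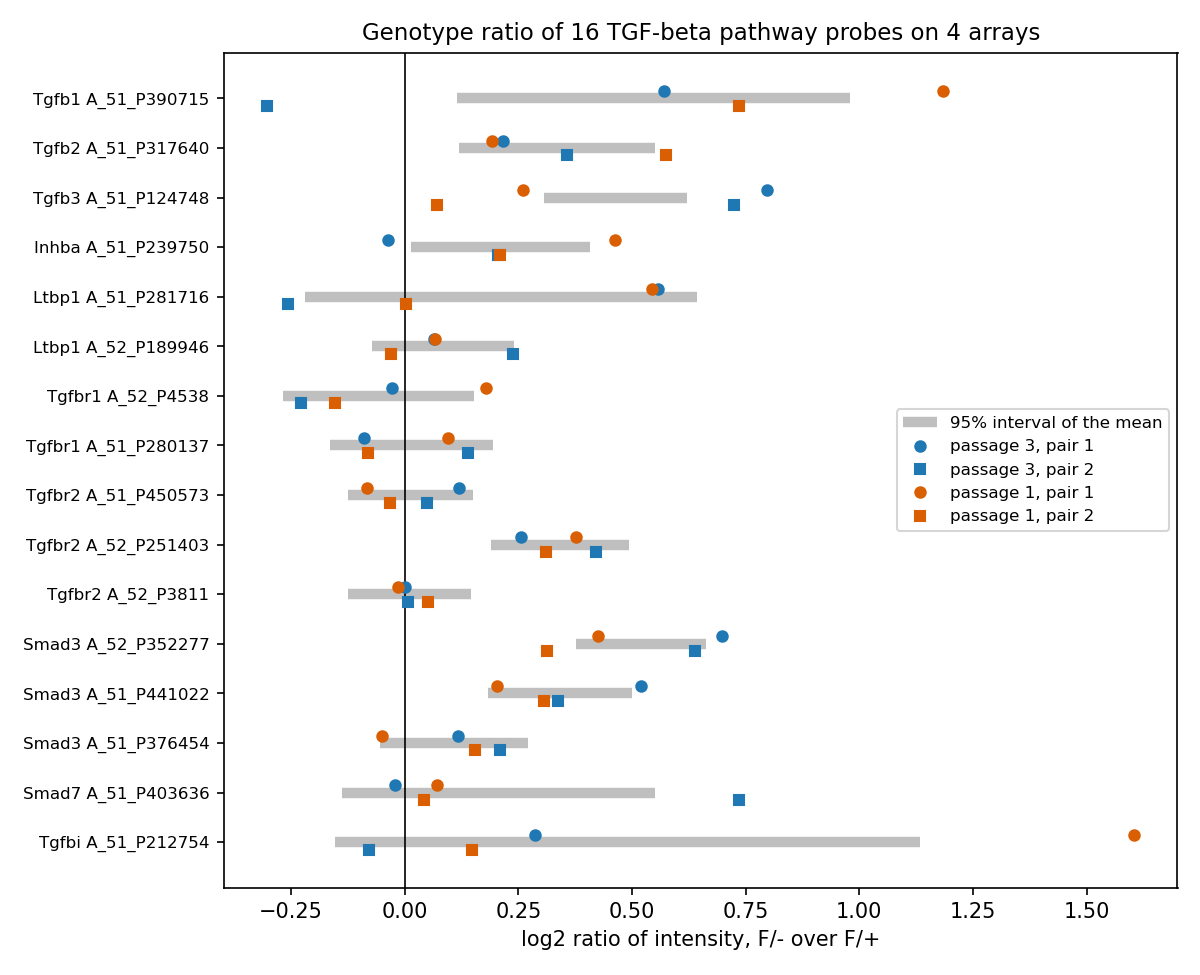
Log2 ratio of F/- over F/+ intensity (horizontal axis) on each of the 4 arrays for the 16 member probes, passage 3 in blue and passage 1 in orange, circles for pair 1 and squares for pair 2, with the 95% interval of the average in grey. The 4 points lie right of 0 for Tgfb2, Tgfb3, Tgfbr2 A_52_P251403 and 2 probes of Smad3.

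The genotype calls rest on few arrays. Without the late array of pair 1, or without either early array, 0 member probes and 0 of all probes passed, and averaging the 2 arrays of each pair first also left 0 of both. Median centring in place of loess left 1 member probe, Smad3 A_52_P352277, and turned the split of all called probes, of which 23.1% were higher in F/- cultures, against 66.2% after loess.

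Whether the genotype ratio itself differed between passages was tested by the late minus early difference. For 0 of 16 member probes, and 0% of all probes, did the difference pass limma's test at an adjusted p under 0.05. It had an unadjusted p under 0.05 for 2 member probes, where 5.83% of all probes did. These were Tgfb3, at 0.60 (0.28 to 0.91), or 0.54 in pair 1 and 0.65 in pair 2, with an adjusted p of 0.819, and Smad3 A_52_P352277, at 0.30 (0.01 to 0.59), with an adjusted p of 0.841. Tgfb1 went the other way, by -0.83 (-1.69 to 0.04, adjusted p = 0.864), or -0.61 in pair 1 and -1.04 in pair 2.

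Other genes of the pathway were taken from 5 lists with 80 genes, 1 probe per gene, of which 78 were measured in the passage comparisons and 79 in the genotype comparisons. With passage, 9 rose and 2 fell in F/- cultures (14.1%, beside 5.09% of all probes), and 11 rose and 2 fell in F/+ cultures (16.7%, beside 5.66%). With 1 array left out, which leaves 1 sample in an arm, these counts moved, and so did those over all probes. Both fell without either early array and rose without the late array of pair 1, in each genotype. The medians over all listed genes were 0.27 and 0.22, beside 0.01 and 0.02 over all probes. The lists were chosen with earlier results of these data known and use the brightest probe of a gene, so these shares and medians are no independent test. For ligands and activators the median was 0.97 in both genotypes, or 0.51 in F/- and 0.49 in F/+ cultures with all probes of a gene averaged. On the brightest probes it was 0.51 in F/- and 0.39 in F/+ cultures for responsive targets, and 0.12 and 0.06 for receptors. Inhibitors had medians of 0.03 and 0.06, and Smads and partners -0.13 and -0.03. Of 29 responsive targets measured, 22 in F/- and 20 in F/+ cultures had changes above 0. Among ligands and activators, Thbs1, whose product thrombospondin-1 activates latent TGF-beta, rose by 3.52 in F/- (limma adjusted p = 0.00243) and 3.06 in F/+ cultures (adjusted p = 0.00371). The activin and inhibin subunit gene Inhbb rose by 2.04 (adjusted p = 0.0015) and 2.46 (adjusted p = 0.000706), and Inha, the inhibin alpha subunit, by 1.11 and 1.61. Ltbp3, a latent TGF-beta binding protein gene, rose by 1.12 and 1.06. Bmp4, a bone morphogenetic protein gene, fell by 0.92 in F/- cultures (adjusted p = 0.022, and 0.0561 with the pair as a replicate block) and stood at -0.46 in F/+ cultures, which did not pass (adjusted p = 0.159).

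The largest changes among the responsive targets were those of Fn1 and Tagln. Fn1, which encodes fibronectin, had levels of 14.49 and 13.35 at passage 3 and 9.05 and 8.88 at passage 1 in F/- cultures, and 12.71 and 12.19 at passage 3 and 7.99 and 8.01 at passage 1 in F/+ cultures. Late F/- samples were highest and early F/+ samples lowest, with no overlap between groups. It rose by 4.96 in F/- (limma adjusted p = 0.000903) and 4.45 in F/+ cultures (adjusted p = 0.00113). Tagln, which encodes the actin-binding protein transgelin, rose by 3.91 (adjusted p = 0.000184) and 3.06 (adjusted p = 0.000251). Ccn2, the connective tissue growth factor gene, rose by 2.55 and 2.29, Tgfb1i1, which encodes a focal adhesion protein, by 1.63 and 1.43, and the transcription factor gene Bhlhe40 by 1.03 and 1.38. With the pair as a replicate block the adjusted p was 0.0509 in F/- and 0.0625 in F/+ cultures for Ccn2, and 0.0687 and 0.0862 for Tgfb1i1. Ccn1, a matricellular protein gene, stood at 1.58 in F/- cultures (adjusted p = 0.0582) and rose by 1.76 in F/+ cultures (adjusted p = 0.0391). Id3, an inhibitor of DNA binding, stood at 0.66 in F/- cultures (adjusted p = 0.151) and rose by 1.19 in F/+ cultures (adjusted p = 0.0261). With the block Id3 had an adjusted p of 0.0605 in F/+ cultures. The late minus early difference of the genotype ratio passed for none of the 79 listed genes.

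Of the inhibitors, 1 of 14 changed with passage: Fst, which encodes the activin-binding protein follistatin. Its levels were 11.31 and 11.89 at passage 3 and 14.26 and 14.22 at passage 1 in F/- cultures, and 12.59 and 12.96 at passage 3 and 14.10 and 14.66 at passage 1 in F/+ cultures. Late samples lay below early ones in both genotypes, and late F/- samples below late F/+ samples. It fell by 2.64 (limma adjusted p = 0.00465) in F/- and by 1.61 (adjusted p = 0.0267, and 0.0565 with the pair as a replicate block) in F/+ cultures. None of the 10 other receptor genes passed with passage in either genotype, and of 10 Smads and partners only the coactivator gene Ep300 did, which fell by 0.94 in F/+ cultures (adjusted p = 0.0293, and 0.0524 with the block).

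**Figure D4:**
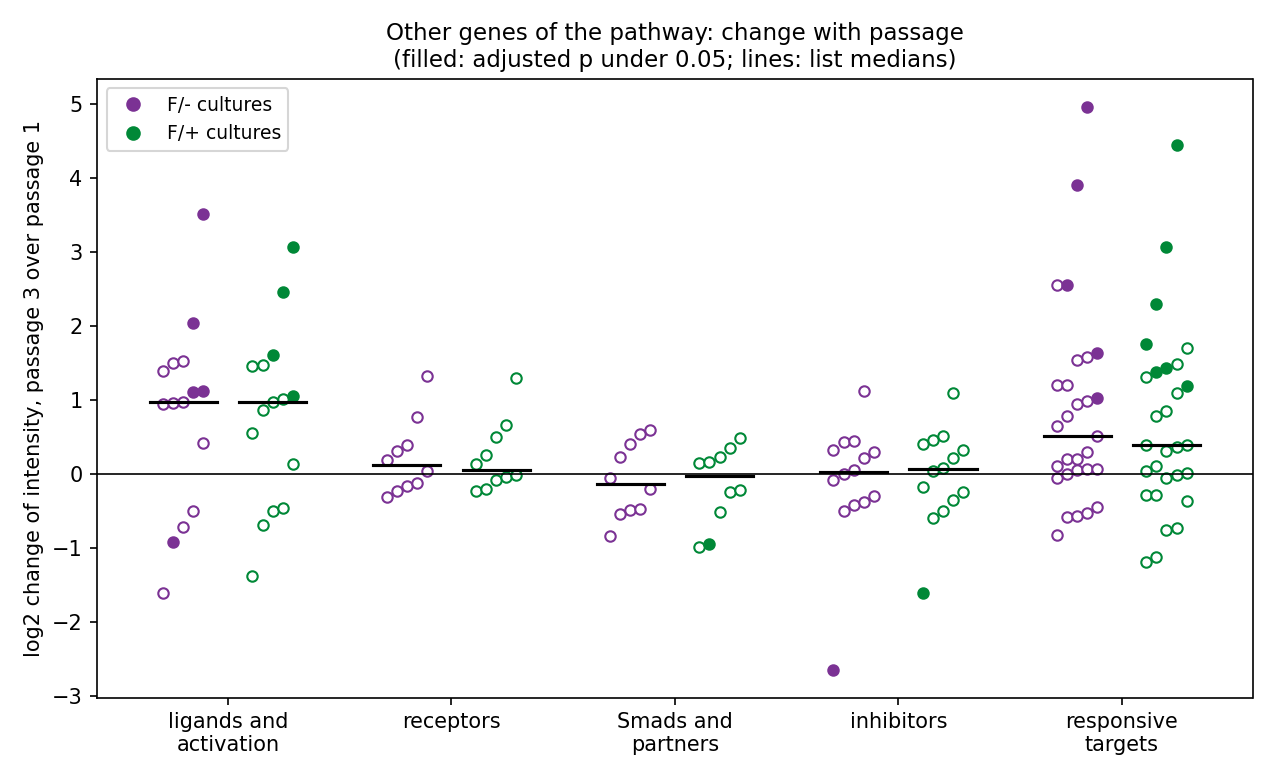
Log2 change of intensity, passage 3 over passage 1 (vertical axis), of the other pathway genes in 5 lists, F/- left of F/+ cultures, filled where the adjusted p was under 0.05, with lines at list medians. The highest points are Fn1 at 4.96 and 4.45 among the responsive targets, and the lowest is Fst at -2.64 among the inhibitors of F/- cultures.

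Between genotypes, averaged over both passages, 12 of 79 listed genes were higher and 2 lower in F/- cultures (17.7%, beside 8.84% of all probes). The limits on the choice of lists and probes hold for this share too. The matrix and protease genes Fn1 (1.22, limma adjusted p = 0.0257) and Mmp2 (1.17, adjusted p = 0.0262) had the largest ratios. They were followed by the fibronectin receptor subunit gene Itga5 (0.91), Bhlhe40 (0.85), the smooth muscle actin gene Acta2 (0.84), Ccn1 (0.83), the cell cycle inhibitor gene Cdkn2b (0.60), Ltbp2 (0.60), the proprotein convertase gene Furin (0.54), the inhibitory Smad gene Smad6 (0.52) and the follistatin-like gene Fstl3 (0.39). Furin had an adjusted p of 0.0628 with the pair as a replicate block. Tagln was called at 0.33 but stood at -0.043 with median centring in place of loess. Acta2 (0.29), Ccn1 (0.36), Cdkn2b (0.28), Furin (0.15) and Fstl3 (0.25) also lost the call with median centring. Cdkn2b had no value on the late array of pair 2. Fst (-0.66, adjusted p = 0.0402) and the activin type I receptor gene Acvr1b (-0.36, adjusted p = 0.0415) were lower. These counts moved with the processing: 21 were higher and 3 lower of 78 with the pair as a replicate block. They were 20 and 2 with a background offset of 0, and 7 and 6 with median centring. Over all probes, 2080 were higher and 1064 lower in the main fit, and 2095 and 1133 with the block. There they were 2564 and 1369 with the offset of 0, and 917 and 3050 with median centring. Calls among listed genes and over all probes both rose without the late array of pair 2. None passed without the late array of pair 1, without either early array, or with the arrays of each pair averaged first.

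Some markers of other cells also changed. Col1a1, Col1a2, Dcn and Acta2 are in both the pathway lists and the marker lists, so the lists are not separate. Fibroblast markers (12 of 12 measured, 11 well above background in every channel) had summed intensities of 9620 to 12000 at passage 3 and 3510 to 3560 at passage 1 in F/- cultures, and 4900 to 6840 at passage 3 and 2730 to 4010 at passage 1 in F/+ cultures. With passage, 2 of the 12 rose in each genotype: Postn by 3.49 in F/- and 3.47 in F/+ cultures, and Col5a2 by 2.06 and 1.53. The list medians were 0.63 and 0.04, and 11 of the 12 changes were above 0 in F/- and 7 in F/+ cultures. Bright genes weigh most in the sums. In F/+ cultures Postn had levels of 10.95 and 11.33 at passage 3 and 7.65 and 7.71 at passage 1. Between genotypes the median ratios of the fibroblast list were 1.02 and 0.31 at passage 3 and 0.27 and 0.02 at passage 1. Of 5 myofibroblast and muscle markers, 2 rose: Cnn1 by 5.31 in F/- and 5.02 in F/+ cultures, and Myl9 by 3.95 and 4.03.

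Macrophage and leukocyte markers, 12 of 12 measured, summed to 9750 to 14700 at passage 3 and 25700 to 38100 at passage 1 in F/- cultures, and to 4370 to 4430 at passage 3 and 23800 to 26400 at passage 1 in F/+ cultures. With passage, 1 of the 12 was called lower in F/- and 4 in F/+ cultures, where 2.28% and 2.49% of all probes were. The medians of this list were -1.26 in F/- and -1.35 in F/+ cultures, and 1 of the 12 changes was above 0 in each genotype. The 6 melanocyte markers summed to 24900 to 25400 at passage 3 and 67700 to 72100 at passage 1 in F/- cultures, and to 23700 to 26600 at passage 3 and 71400 to 85700 at passage 1 in F/+ cultures, with 4 and 3 of them called lower. The 6 endothelial markers, of which Cdh5 and Tie1 were dim in some channels, summed to between 667 and 701 at passage 3 in either genotype and to between 1370 and 1820 at passage 1. Only Kdr was called lower, with changes of -2.50 in F/- and -2.87 in F/+ cultures. The list medians were -0.25 and -0.15, and 2 of the 6 changes were above 0 in each genotype, so the sums do not describe the list as a set. The keratinocyte markers summed to 288000 to 311000 at passage 3 and 336000 to 362000 at passage 1 in F/- cultures, and to 454000 to 462000 at passage 3 and 395000 to 470000 at passage 1 in F/+ cultures. Krt14 (-0.66, limma adjusted p = 0.0262) and Krt5 (-0.60, adjusted p = 0.0318) were lower in F/- cultures when averaged over both passages. The median ratio of the 7 keratinocyte markers was -0.13, and 3 of them had ratios above 0. With median centring in place of loess, Krt14 stood at -1.46 and Krt5 at -1.36. Higher in F/- cultures after loess, averaged over both passages, was Lyz2 (1.27, limma adjusted p = 0.0258) of the macrophage and leukocyte markers. So were Postn (0.66, adjusted p = 0.0258) and Col5a2 (0.79, adjusted p = 0.0353) of the fibroblast markers. The part of these cell markers in the pathway changes was not tested.

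For each member's brightest probe, the non-member gene with the most similar levels over the 8 channels was sought among 25286 probes. The 3 closest matches were Tagln to Tgfb3 (Pearson's r = 0.998, on the Tagln probe A_52_P517683), Fam110b to Tgfbr1 (r = 0.997) and Tmem171 to Smad3 (r = 0.997). The Tagln probe had levels of 13.33 and 13.16 at passage 3 and 8.96 and 9.03 at passage 1 in F/- cultures, and 12.34 and 12.57 at passage 3 and 8.80 and 8.80 at passage 1 in F/+ cultures. As with Tgfb3, the late F/- samples were highest, then the late F/+ samples. The 8 values come from 4 arrays in 2 passages, so the points share passage and array, and no p is given.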

How the data were processed

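The submitters' processing notes name Agilent Feature Extraction 9.1.3.1 as the scanner software for the deposited files of 4 arrays (8 RNA samples). Per the file headers, each spot has a raw mean, a background and a processed intensity for both dyes, outlier and detection flags, and a log10 ratio. The authors' deposited value table holds the same log10 ratio with its sign turned, so that F/- is on top (largest gap 4.96e-06). Its medians lie between -0.00223 and 0, so scale, centring and direction are known.

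Raw intensities were corrected with normexp (offset 50) and normalized within arrays by loess using limma 3.58.1 in R 4.3.3. Control spots had no weight, outliers were left out, and spots of a probe were averaged. A probe was tested when it was detected in either dye on 2 or more arrays and missing on no more than 1, which held for 35574 of 41174. Detected gene spots made up 75.8% to 87.9% of a channel, and the number of arrays limits the precision. Genotype was tested with limma on the ratios with passage as group (2 residual degrees of freedom and 2.81 from the prior). Passage was tested within dye by limma's separate-channel fit after Aquantile scaling, on 35475 probes; both dyes of 1 spot correlated at 0.741. Fits with a replicate block or with an array left out used that same value. Tests were two-sided, with Benjamini-Hochberg adjustment over all probes. Array names were updated through a RefSeq table of GRCm38.p6.

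Pair numbers were taken as pairing, since the design text has the same mice sampled at both passages. Deviations of same-numbered arrays correlated at -0.000464 for ratios, 0.251 for F/- and 0.0304 for F/+ levels. The average over passages treats the passages of a mouse as independent. The text names all member probes, every called gene of the pathway lists (1 probe a gene, the brightest), the 3 closest matches by level, and Casp8. The members and lists were chosen with earlier results of these data known. Alternatives changed the offset, background correction, normalization, scaling, filter, block and arrays used, and the deposited ratios were tried.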

Additional observations from a re-analysis of the deposited data

How the results depend on the processing

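Over 1200 combinations of a member probe, a comparison and an alternative, 1049 kept their direction and side of the threshold, 61 lost the call and 7 gained one. Another 81 changed sign where the main value had no firm sign. The other 2 reversed, both of them Inhba with median centring in place of loess (-0.29 at passage 1 and -0.37 averaged over passages). Their main values of 0.34 and 0.21 were not called (limma adjusted p = 0.189 and 0.152), nor was Inhba with median centring. Tagln turned to -0.043 there. The member probes called between genotypes, averaged over both passages (4), numbered 1 with median centring, 2 with the scanner software's ratios, 2 with the authors' value table, 0 with the arrays of each pair averaged first and 0 to 4 with 1 array left out. Those called with passage in F/- cultures (5) numbered 2 without scaling between arrays, 2 with signals scaled to the 75th percentile and 1 to 4 with 1 array left out, and in F/+ cultures (5) 2, 4 and 1 to 6. At passage 3 alone, at passage 1 alone and in their difference, 0 member probes were called with any array left out.

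With the pair as a replicate block, 3 member probes were called between genotypes, 5 with passage in F/- and 4 in F/+ cultures. For these probes the block changed no call beyond those given beside the results. Of the listed genes, 10 rose and 2 fell in each genotype with the block, and the genes gained are not named. Without scaling between arrays, 4 rose and 1 fell in F/- and 6 and 0 in F/+ cultures, with the 75th percentile 8 and 3, and 7 and 4, and with median centring 13 and 2, and 17 and 2. Over all probes, the calls between genotypes at passage 1 numbered 69 with an offset of 0 against 0. The median of all probes shifted to -0.15 in F/- and -0.13 in F/+ cultures without scaling and to -0.25 and -0.24 with the 75th percentile. The median change with passage of ligands and activators was 0.51 in F/- and 0.49 in F/+ cultures with the mean of all probes of a gene, against 0.97 in both with the brightest probe. The cause of these differences was not tested. A fit with the slide as a block was not run, because all arrays share 1 slide. With 1 array left out, an arm has 1 sample, which is assumed to vary like the others. Probes near background have compressed ratios, which bears on the dimmest member probes.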
